A study of Mus musculus with 6 samples.

Results

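The heat shock and unfolded protein response genes are the chaperones, folding enzymes and regulators with which a cell meets misfolded protein. They were examined here as a heat shock arm of 16 genes and an endoplasmic reticulum (ER) stress arm of 28 genes, named for their known function. Of these 44 genes, 40 were measured by a probe set assigned to a single gene, 13 in the heat shock arm and 27 in the ER arm, out of 22180 named genes on the array. Hsf1, Hsp90ab1, Dnaja1 and Pdia4 had no such probe set and were not analysed here.

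The samples were fibroblasts from the ventral skin of female mice on a C57BL/6 background, aged 8 to 12 weeks, in 2 groups of 3 samples with 1 array each. One group came from K14-PTHrP (KrP) transgenic mice, whose basal keratinocytes make parathyroid hormone-related protein from the keratin 14 promoter, so that the transgene is not driven in the fibroblasts of their nipple-like skin. The free-text descriptions of KrP 2 and KrP 3 read K15 and K16, while genotype and source name read K14 in all 3. The other came from wild-type (WT) littermates, whose ventral skin is labelled as telogen, the resting phase of the hair cycle. Cells of both groups were released with trypsin and collagenase, pooled, and sorted as viable CD140-positive cells lacking CD31, CD45, CD117 and CD49f. The labels name 3 mice as the source of cells without saying whether for each sample or for each group, and no label gives separate animals to the samples. The p-values therefore rest on sample-to-sample spread alone, part or all of which may be technical.

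In the cytosol, heat shock factor 1 switches on chaperones of the HSP70, HSP90, HSP40 and small heat shock protein families when proteins unfold. In the ER, where fibroblasts fold collagen and other secreted proteins, the sensors IRE1, PERK and ATF6 start separate branches. IRE1 (gene Ern1) splices Xbp1 messenger RNA, and XBP1 and ATF6 raise ER chaperones, disulfide isomerases and the machinery of ER-associated degradation (ERAD), which removes misfolded proteins. PERK (Eif2ak3) slows translation and favours ATF4, which raises genes of amino acid supply, redox balance and, through CHOP (Ddit3), cell death.

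Promoters of ER chaperones are known to carry the ER stress element, in which CCAAT is followed after 9 bases by CCACG. In RefSeq promoter windows of GRCm38.p6, reaching from 250 bases before to 50 bases after a start site, this element was found on either strand in 37 of 27025 genes, or 0.137%. Of the 25 ER members with a window, 8 held it, namely Hspa5, Hsp90b1, Pdia6, Calr, Canx, Dnajc3, Creld2 and Syvn1, and none of the 12 heat shock members with a window did. A match is a description of the letters and not evidence of binding. The stretches below show it in Hspa5, which encodes the ER chaperone BiP and is the classical carrier of the element, and in 3 members whose levels are described in full. Each is printed 5′ to 3′ on the strand of the gene, with the paired blocks in capitals, as CCAAT and CCACG or, where the element lies on the opposite strand, as CGTGG and ATTGG.

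Hspa5, chr2:34772005-34772063, plus strand: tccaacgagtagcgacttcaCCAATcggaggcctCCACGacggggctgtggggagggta

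Pdia6, chr12:17266471-17266529, plus strand: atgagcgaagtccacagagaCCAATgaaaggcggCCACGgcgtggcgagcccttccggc

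Creld2, chr15:88819500-88819558, plus strand: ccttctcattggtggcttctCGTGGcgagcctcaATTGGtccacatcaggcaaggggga

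Hsp90b1, chr10:86705513-86705676, minus strand: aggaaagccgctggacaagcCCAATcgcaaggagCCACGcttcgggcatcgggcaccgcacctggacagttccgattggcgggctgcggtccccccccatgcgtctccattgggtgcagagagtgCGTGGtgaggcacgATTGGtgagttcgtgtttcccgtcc

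The element was separated from the start site by 46 bases in Hspa5, 79 in Pdia6 and 107 in Creld2. Hsp90b1 held 2 copies, one on each strand, separated from the start by 193 and 88 bases. Its relative ERSE-II, ATTGG and CCACG set 1 base apart, was found in Herpud1 and Dnajb11 and in 12 of 27025 genes in all. Heat shock elements of 3 alternating GAA and TTC units, each 2 bases apart, were found in Hsph1, Hspd1 and Hspe1, 3 of 12 heat shock members, and in 0.662% of all genes. Hspd1 and Hspe1 face away from each other with overlapping windows, and their matches are the same bases counted for both genes. In Hsph1 the element lay after the start site. A looser form with 2 units was found in 10 of the 12, among them Hspa1a, Hspa1b and Hspb1, in 2 of 25 ER members and in 4587 of 27025 genes in all. Neither TGACGTGG, a UPR element, nor TGATGNAAT, an element of the ATF4 type, was found on either strand in any member window, against 0.714% and 1.08% of all genes.

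All 40 measured members lay above the 95th percentile of olfactory receptor genes, 6.28 on the log2 scale, which served as a guide to background. Array medians lay between 6.34 and 6.43 over all probe sets, and precision is limited by the number of arrays. Of the 22180 genes, 2.18% passed limma's test after Benjamini-Hochberg adjustment (adjusted p under 0.05), 1.15% higher and 1.03% lower in KrP samples. All 8 fibroblast markers measured lay above background. Their mean log2 level ran from 11.63 to 12.25 in WT and from 12.04 to 12.71 in KrP samples. Of these 8, 7 had a higher mean in KrP samples and 1 a lower one. Their median log2 fold change was 0.485, and none passed the test. The mean level of 9 keratinocyte markers was 6.99 in WT 2 and between 5.95 and 6.10 in the other samples, and Krt17 had a log2 value of 9.06 in WT 2 against 5.60 to 6.10 elsewhere. Markers of endothelial cells (6.65 to 7.02 in WT, 6.43 to 6.69 in KrP) and immune cells (5.70 to 6.14 and 5.71 to 5.91) lay near background as lists. Among them the endothelial genes Tek and Cldn5 fell (log2 fold changes -0.76 and -0.95) and the macrophage receptor gene Csf1r rose (0.73). Tek and Cldn5 lay near the background guide, with means of 6.52 and 7.16 in WT and, under the guide, 5.76 and 6.21 in KrP samples. Of the 7 endothelial markers, 5 had a lower mean in KrP samples and 2 a higher one, with Cdh5 at 0.54 (limma adjusted p = 0.304). Of the 8 immune markers measured, 7 had a lower mean and 1 a higher one. The macrophage genes Adgre1 and Lyz2, both under background, had -0.09 and -0.23. Kdr, an endothelial receptor gene named after its values were seen, had a log2 fold change of -1.41 that missed the threshold (adjusted p = 0.0658) and passed with the block (0.00158). The part of these cells in the results was not tested. Melanocyte, muscle and pericyte, adipocyte and Schwann cell lists had mean levels between 5.87 and 6.53. In such pooled samples, fewer cells of a type and less RNA per cell cannot be told apart.

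Most ER folding and degradation genes had higher values in KrP fibroblasts, by modest amounts. Of the 27 ER members, 1 passed the test, beside 2.18% of all genes. Sdf2l1 rose 1.65-fold, none fell, and the other 26 did not pass. Of the 27 members, 9 had all 3 KrP values above all 3 WT values, against 11.4% of all genes, and 2 had all KrP values below, against 8.93%. At an unadjusted p under 0.05, 10 were higher and 1 was lower, where 9.44% and 6.56% of all genes were. The 9 non-overlapping higher members were Sdf2l1, Edem1, Pdia6, Creld2, Sel1l, Xbp1, Hyou1, Syvn1 and Calr, all with roles in folding, ERAD or the XBP1 branch. The lower pair, Atf4 and Ppp1r15a, belong to the PERK branch, but their share, 7.41% of the ER members, did not exceed that of all genes. The median log2 fold change was 0.14 over the ER members and 0.01 over all genes. With the lower 50% of genes by level dropped, the median over the remaining genes was 0.04, with 6203 above 0 and 4829 below.

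**Figure D1:**
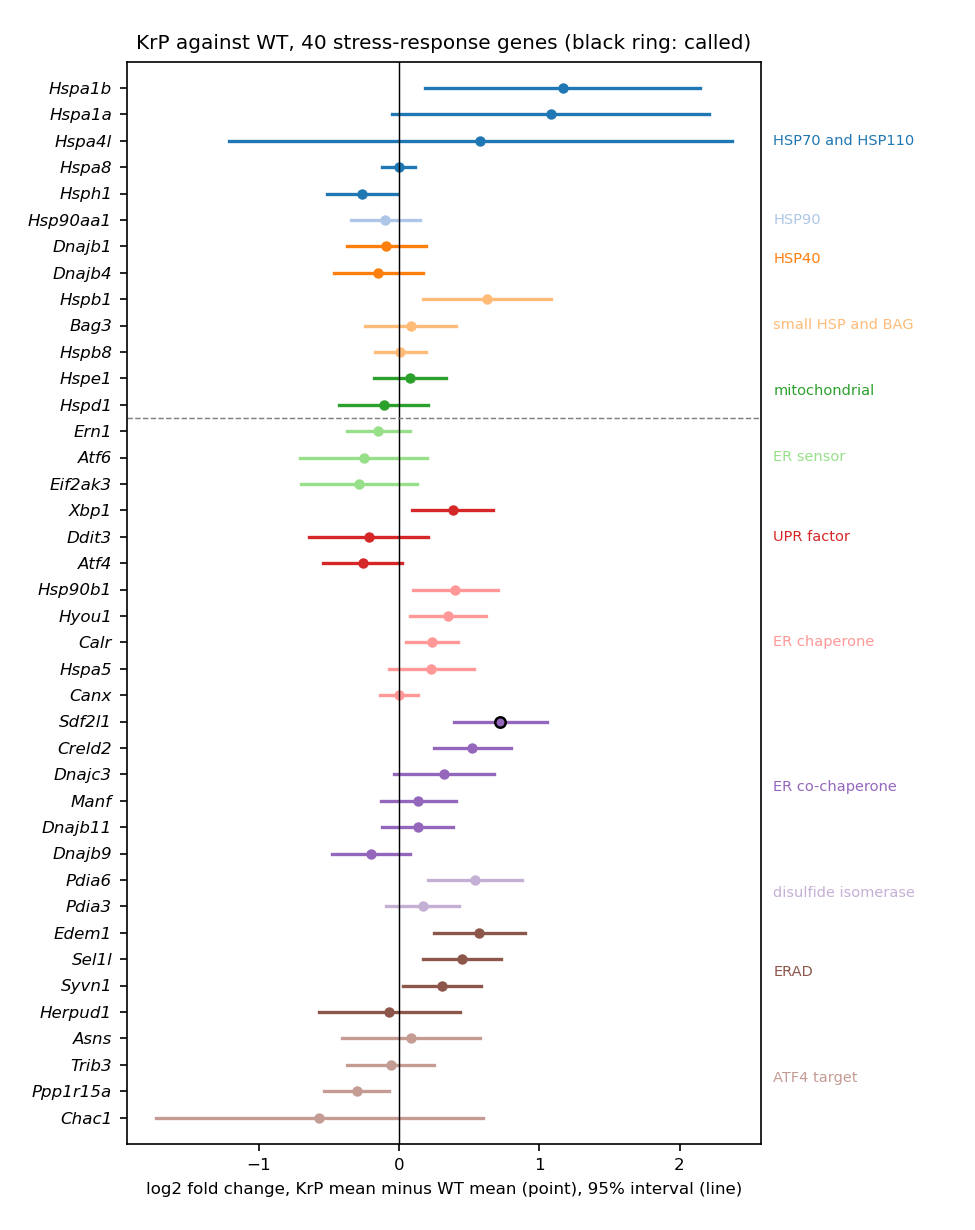
Log2 fold change (KrP mean minus WT mean, x axis) of the 40 measured members with its 95% limma interval, 3 samples per group, grouped by role. The dashed line parts the heat shock arm (above) from the ER arm, and a black ring marks Sdf2l1, the 1 member called; most intervals of ER chaperones, isomerases and ERAD genes lie to the right of 0.

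Sdf2l1 encodes an ER-resident partner of BiP and its J-domain proteins, which delays the aggregation of unfolded clients. Its log2 values were 8.66, 8.80 and 8.48 in WT 1, 2 and 3, and 9.41, 9.17 and 9.53 in KrP 1, 2 and 3. The groups did not overlap, and the lowest KrP value stood 0.37 above the WT sample of the same number. The mean was 8.65 ± 0.16 (SD, n = 3) in WT and 9.37 ± 0.18 (SD, n = 3) in KrP samples. The log2 fold change was 0.72 ± 0.15 SE (95% interval 0.39 to 1.06; limma adjusted p = 0.0492, or 0.0307 with the replicate number as a block). This call lay close to the threshold and ended in each fit that left out WT 1, WT 2, WT 3, KrP 1 or KrP 3, with adjusted p between 0.0784 and 0.253. It also ended with quantile normalisation (adjusted p = 0.0867), where the log2 fold change was 0.63.

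Creld2, a secreted and ER-resident protein with isomerase activity that is induced by ER stress, came next among the co-chaperones. It measured 10.64, 10.82 and 10.43 in WT samples and 11.19, 11.12 and 11.15 in KrP samples. The KrP values were tightly grouped and all above the WT values. The difference was 0.52 ± 0.12 on the log2 scale (adjusted p = 0.0718), and it passed with the block (0.0297). Dnajc3, which encodes the BiP co-chaperone and PERK inhibitor p58IPK, had 10.57, 10.67 and 10.42 against 11.16, 10.58 and 10.88. Here KrP 2 fell within the WT range, and the difference of 0.32 had an interval of -0.04 to 0.68 and was 0.18 without KrP 1. Manf and Dnajb11, an ER-retained protective factor and a BiP J-domain partner, had log2 fold changes of 0.14 and 0.13. Dnajb9, a J-domain protein that restrains IRE1, had -0.20, with an interval of -0.47 to 0.07.

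The 5 ER chaperones measured did not pass the test. Hspa5 had log2 values of 11.34, 11.43 and 11.47 in WT and 11.82, 11.35 and 11.76 in KrP samples. KrP 1 and KrP 3 exceeded every WT sample and KrP 2 did not, and the log2 fold change was 0.23 (interval -0.07 to 0.53; adjusted p = 0.452). Hsp90b1, the gene of the ER HSP90 paralogue GRP94, measured 12.04, 12.26 and 11.97 against 12.71, 12.24 and 12.52. The pattern was as in Hspa5, with KrP 2 just under WT 2. The difference was 0.40 ± 0.13 SE (adjusted p = 0.184). It passed without KrP 2 (0.53, adjusted p = 0.0431), a fit in which 1116 of all genes passed, against 483 with all samples. With any other single sample left out, the adjusted p of Hsp90b1 lay between 0.204 and 0.478. Hyou1, which encodes the exchange factor of BiP, had 10.90, 11.26 and 10.91 against 11.38, 11.40 and 11.33, a difference of 0.35 (interval 0.08 to 0.62; adjusted p = 0.198). The lectin chaperone genes Calr and Canx, whose products hold newly made glycoproteins, differed in their values. Calr ran from 12.36 to 12.52 in WT and from 12.61 to 12.79 in KrP samples, and Canx had a mean of 13.03 in each group (interval of the difference -0.13 to 0.13). Calr did not pass (0.23, adjusted p = 0.201), and its groups did not overlap.

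Disulfide isomerases form and rearrange the disulfide bonds of secreted proteins. Pdia6, whose product also acts on IRE1, measured 10.10, 10.18 and 10.00 in WT and 10.89, 10.37 and 10.65 in KrP samples. All KrP values were above all WT values, with KrP 2 nearest to them. The log2 fold change was 0.54 ± 0.15 SE (adjusted p = 0.115), and it passed without KrP 2 (0.68, adjusted p = 0.0281). With any other single sample left out, the adjusted p lay between 0.196 and 0.377. Pdia3, the isomerase that works with calreticulin and calnexin, had 0.17 (interval -0.09 to 0.43).

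In ERAD, Edem1 encodes a lectin that directs mannose-trimmed glycoproteins to degradation. Its log2 values were 10.25, 10.32 and 10.29 in WT samples and 11.16, 10.66 and 10.76 in KrP samples. The WT values spread over less than the gap to the lowest KrP value. The log2 fold change was 0.57 ± 0.14 SE, a 1.49-fold difference (adjusted p = 0.0919). It passed with the block (0.0400) and without KrP 2 (0.0394). With any other single sample left out, the adjusted p lay between 0.126 and 0.294. A second Edem1 probe set had a mean of 5.28, under the background guide, and gives no reading of the difference. Sel1l, the adaptor of the ERAD ubiquitin ligase, measured 10.07, 10.14 and 10.04 against 10.71, 10.36 and 10.53. These groups did not overlap either, at 0.45 ± 0.12 SE with an adjusted p of 0.113. That was 0.0456 without KrP 2 and between 0.200 and 0.376 with any other single sample left out. Syvn1, the ligase HRD1 itself, ran from 9.47 to 9.49 in WT and from 9.62 to 9.93 in KrP samples (0.31, adjusted p = 0.262). Herpud1, which organises that ligase complex, varied more within groups, from 10.84 to 11.51 in WT and from 10.73 to 11.42 in KrP samples, at a log2 fold change of -0.07.

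**Figure D2:**
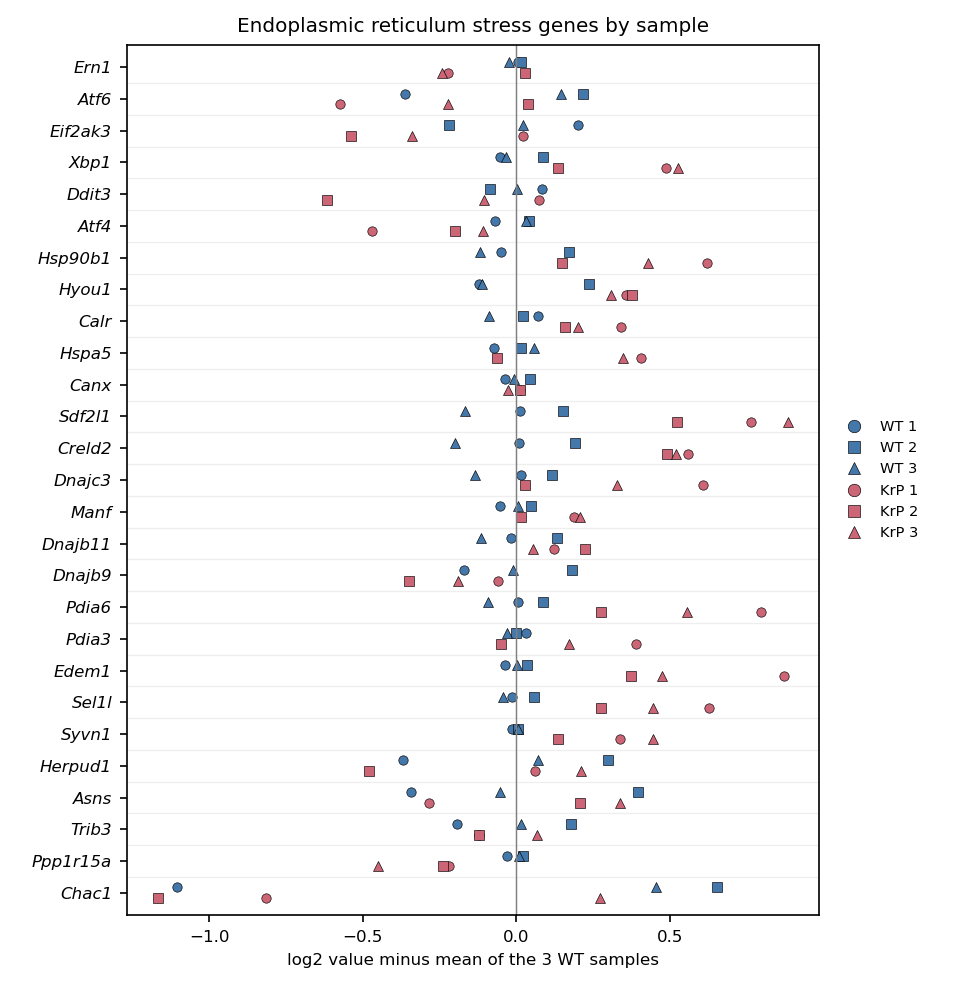
Values of the 27 measured ER stress genes in each sample, as log2 value minus the mean of the 3 WT samples (x axis), with WT in blue and KrP in red and a marker for each replicate number. In Sdf2l1, Edem1, Pdia6, Creld2 and Sel1l every red point lies to the right of every blue point, and KrP 2 (red square) is often the red point nearest to 0.

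Among the sensors and factors, Xbp1 alone had higher values in KrP samples. Xbp1 measured 10.76, 10.90 and 10.78 in WT and 11.30, 10.95 and 11.34 in KrP samples. KrP 2 exceeded the highest WT value by a small margin and the others by more. The log2 fold change was 0.38 ± 0.13 SE (interval 0.09 to 0.67, adjusted p = 0.182). The adjusted p was 0.0359 without KrP 2 and between 0.271 and 0.515 with any other single sample left out. The probe set reports total Xbp1 transcript, and its splicing was not analysed here. The 3 sensors had negative differences, none past the test. Ern1 had log2 values of 11.78, 11.79 and 11.75 against 11.55, 11.80 and 11.53, at -0.15 (adjusted p = 0.519). Atf6 had 11.11, 11.69 and 11.62 against 10.90, 11.51 and 11.25, at -0.25 (0.594). Eif2ak3 had 9.21, 8.79 and 9.03 against 9.03, 8.47 and 8.67, at -0.29 (0.494). In each of the 3 sensors the groups overlapped.

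Of the 7 measured members of the PERK branch, 6 had a lower mean in KrP samples, and none passed the test. Atf4 measured 10.50, 10.61 and 10.60 in WT and 10.10, 10.37 and 10.46 in KrP samples, with no overlap between the groups. Its log2 fold change was -0.26 ± 0.12 SE (interval -0.54 to 0.02; adjusted p = 0.351). Ppp1r15a, whose product GADD34 restores translation after PERK activation, had 11.15, 11.20 and 11.19 against 10.96, 10.94 and 10.73, a difference of -0.30 ± 0.10 SE (adjusted p = 0.184). The WT values nearly coincided and every KrP value lay below them. Ddit3 had 8.65, 8.48 and 8.57 against 8.64, 7.95 and 8.46 (-0.22, adjusted p = 0.637). KrP 2 was the low sample there, and the other samples overlapped. Chac1, a glutathione-degrading target of ATF4, measured 8.41, 10.17 and 9.97 in WT and 8.70, 8.35 and 9.79 in KrP samples. WT 1 was low beside the other WT samples and KrP 3 high beside the other KrP samples. Its log2 fold change of -0.57 (interval -1.74 to 0.60; adjusted p = 0.655) ran from -1.12 without WT 1 to -0.24 without WT 2, and its spread within groups was above that of 99.8% of all genes. The pseudokinase gene Trib3 and the asparagine synthetase gene Asns had -0.06 and 0.09, with intervals of -0.37 to 0.25 and -0.41 to 0.58. ATF4 is controlled mainly through translation, which these arrays do not measure.

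Grouped after their values were known, the 18 measured folding, isomerase and ERAD members together with Xbp1 had a median log2 fold change of 0.31, with 15 above 0 and 2 below. The 7 PERK and ATF4 members had a median of -0.26, with 1 above 0 and 6 below. The folding group's median ran from 0.24 to 0.38 over the fits that left out 1 sample, and that of the PERK group from -0.34 to -0.16. The PERK group's median was -0.06 without both samples numbered 2. KrP 2 had the lowest KrP value in 15 of the 18 folding members, or 83.3%, and in 31.5% of all genes. Relative to each gene's mean over the 6 samples, the folding members had medians of -0.21, -0.08 and -0.22 in WT 1, 2 and 3 and of 0.29, -0.01 and 0.20 in KrP 1, 2 and 3. KrP 2 thus stood between the WT samples and the other KrP samples. The 8 fibroblast markers, taken the same way, had medians of -0.45, -0.45 and 0.05 in WT and 0.39, -0.09 and 0.27 in KrP samples. The 5 adipocyte markers, of which 2 lay above background, had 0.17, -0.29 and 0.07 in KrP 1, 2 and 3. KrP 2 was the lowest KrP sample in both lists, and in the endothelial (-0.125) and muscle and pericyte lists (-0.015). It was the highest in the immune and melanocyte lists (0.05 in each), and in the middle in the keratinocyte and Schwann cell lists. The part of these markers in the result was not tested.

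None of the 13 measured heat shock members passed the test, beside 2.18% of all genes, and in all 13 the groups overlapped. At an unadjusted p under 0.05, 2 were higher (Hspa1b and Hspb1) and 1 was lower (Hsph1), beside 9.44% and 6.56% of all genes. With the block, Hspa1b and Hspb1 passed as higher, and 3 ER members did, namely Sdf2l1, Creld2 and Edem1, beside 5.33% of all genes higher and 3.02% lower. The median log2 fold change of the heat shock members was 0.01. The arm held both the steadiest and the most variable members of the whole set.

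**Figure D3:**
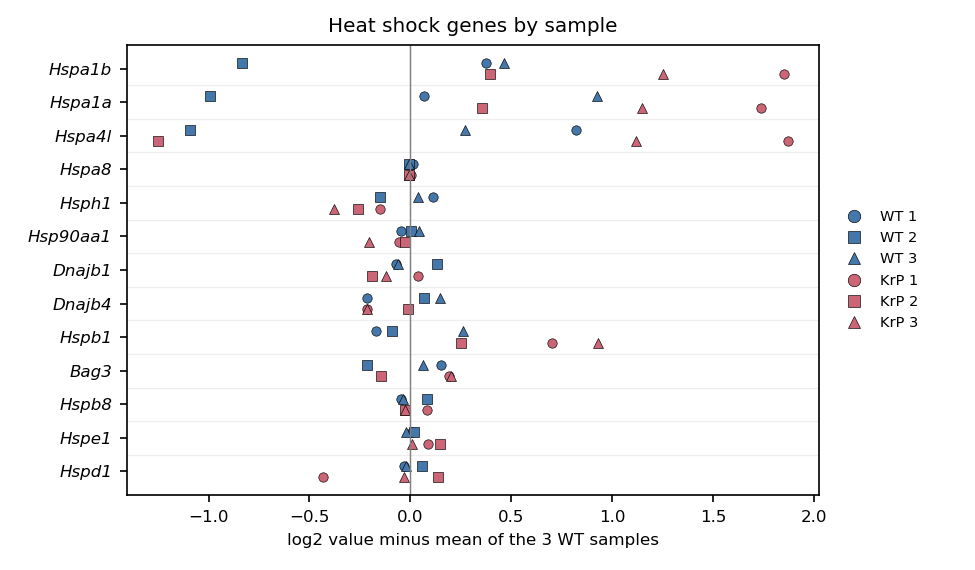
Values of the 13 measured heat shock genes in each sample, as log2 value minus the mean of the 3 WT samples (x axis), with WT in blue and KrP in red. Hspa1b, Hspa1a and Hspa4l span 2.69, 2.73 and 3.12 log2 units over the 6 samples with overlapping groups, while Hspa8, Hspb8 and Hspe1 span 0.02, 0.13 and 0.17.

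Hspa1a and Hspa1b encode the stress-inducible HSP70, in nearly identical proteins from neighbouring genes. Their promoter windows shared 296 of 300 bases, and signal may cross between their probe sets, so neither value is certain for the single gene. Hspa1a had log2 values of 8.93, 7.87 and 9.79 in WT and 10.60, 9.22 and 10.01 in KrP samples. WT 2 was lowest, and WT 3 exceeded KrP 2. The log2 fold change was 1.08 ± 0.49 SE (interval -0.05 to 2.21; adjusted p = 0.336). Hspa1b had 10.96, 9.75 and 11.05 against 12.44, 10.98 and 11.84. KrP 1 and KrP 3 exceeded every WT sample, and KrP 2 lay inside the WT range. The difference was 1.17 ± 0.43 SE, or 2.24-fold (interval 0.18 to 2.15; adjusted p = 0.230, or 0.00555 with the block). Between samples of the same number it was 1.48, 1.23 and 0.79. Without WT 2, the sample with the raised keratinocyte markers, the log2 fold change was 0.58 in Hspa1a and 0.75 in Hspa1b, and array weights gave 0.56 in Hspa1a.

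Immediate early genes are switched on quickly during cell dissociation and by other stimuli. The values of 3 of them, chosen after they were seen, are set here beside those of the inducible HSP70 genes. Fos had log2 values of 9.56, 8.47 and 9.29 in WT and 10.96, 10.13 and 10.28 in KrP samples (adjusted p = 0.0746, or 0.00406 with the block). Fosb had 11.11, 10.12 and 10.81 against 12.44, 11.37 and 11.88 (0.100, or 0.00158 with the block), and Jund had 10.80, 10.00 and 10.45 against 11.95, 11.23 and 11.43 (0.0591, or 0.00172). As in Hspa1b, WT 2 was the lowest WT sample and KrP 1 the highest KrP sample in all of these. That order was not particular to them, being found also in Jun, in Klf2 and in the fibroblast marker Pdgfrb. The list as a whole did not follow this pattern, with medians relative to each gene's mean between -0.13 and 0.005 in WT and between 0.01 and 0.11 in KrP samples, and WT 2 the highest of the WT samples. Of 20 immediate early genes measured, none passed, beside 2.18% of all genes. At an unadjusted p under 0.05, 7 were higher and 2 lower, beside 9.44% and 6.56% of all genes. With the block 5 rose and 1 fell, beside 5.33% and 3.02% of all genes. The part of these genes in the HSP70 values was not tested.

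**Figure D4:**
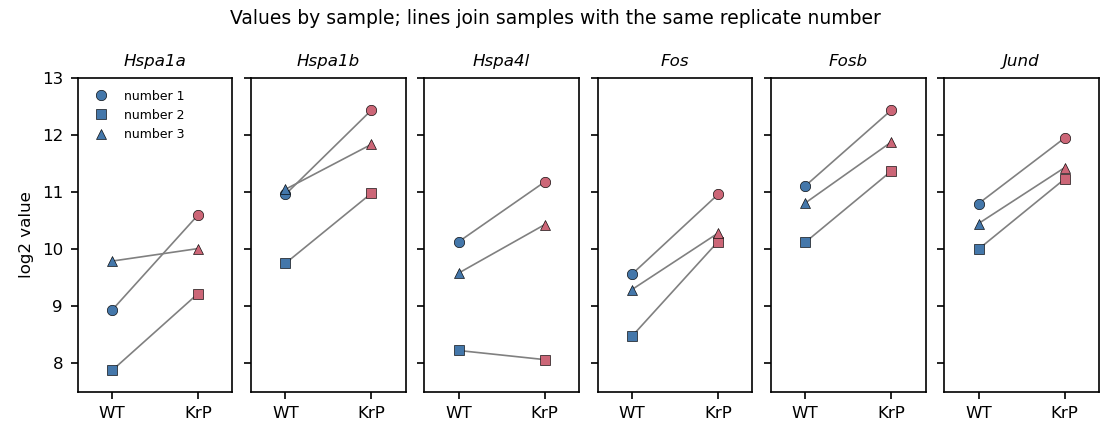
Log2 values (y axis) of 3 heat shock genes and 3 immediate early genes in WT and KrP samples, with lines joining samples of the same replicate number; levels of different genes are not comparable. In Hspa1a, Hspa1b, Fos, Fosb and Jund all 3 lines go up from WT to KrP, and in Hspa4l the line of number 2 does not.

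Hspa4l, an exchange factor of the HSP110 class, separated samples by number more than by genotype. It measured 10.13, 8.22 and 9.58 in WT and 11.18, 8.06 and 10.43 in KrP samples. Both samples numbered 2 lay more than 1 log2 unit below the rest. Its spread within groups exceeded that of 99.98% of all genes, and its log2 fold change of 0.58 had an interval of -1.21 to 2.37. Hsph1, the other HSP110 gene, had 11.50, 11.24 and 11.43 against 11.24, 11.13 and 11.01. Its difference was -0.26 (interval -0.51 to -0.01; adjusted p = 0.285), with WT 2 and KrP 1 level. Hspa8, the constitutive HSP70, measured between 13.27 and 13.29 in all 6 samples, at a level above 99.8% of all genes. Its 3 other probe sets, with means of 10.86, 10.86 and 10.14, differed by -0.09, -0.10 and -0.53 on the log2 scale. The chosen probe set, at -0.00, therefore does not speak for all of them.

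The remaining heat shock members lay near 0, with the exception of Hspb1. Hspb1, the actin-protecting small heat shock protein HSP27, had log2 values of 7.88, 7.96 and 8.31 in WT and 8.75, 8.30 and 8.98 in KrP samples. WT 3 and KrP 2 overlapped by 0.01. The log2 fold change was 0.63 ± 0.20 SE (adjusted p = 0.173), it passed with the block (0.0342), and a second probe set had a mean of 6.09, under the background guide. Hspb8 and its partner Bag3, which steer damaged proteins to autophagy, had 0.01 and 0.08, with intervals of -0.17 to 0.19 and -0.24 to 0.41. The HSP40 genes Dnajb1 and Dnajb4 had -0.09 and -0.15, and the cytosolic HSP90 gene Hsp90aa1 had -0.10 (interval -0.34 to 0.15). Dnajb4 measured 7.49, 7.77 and 7.85 against 7.49, 7.69 and 7.49. Hspd1 and Hspe1, the mitochondrial chaperonin pair, had -0.11 and 0.08.

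Other genes of the same pathways were drawn from lists beyond the members. Of 45 genes in the list of other cytosolic and mitochondrial chaperones, Cryab rose and none fell, beside 1.15% and 1.03% of all genes. The list also holds the factor genes Hsf2 and Hsf4 and the haem oxygenase gene Hmox1. With the block 2 rose and 1 fell, beside 5.33% and 3.02% of all genes. The 1 that fell was Hmox1 (log2 fold change -0.50). Cryab, a small heat shock protein that binds partly unfolded proteins and desmin filaments, had log2 values of 11.89, 12.48 and 12.03 in WT and 13.34, 12.94 and 13.28 in KrP samples. All KrP values lay above all WT values. It rose 2.08-fold (log2 fold change 1.05 ± 0.16 SE; limma adjusted p = 0.0198), and the gene no longer passed in fits that omitted WT 1 (adjusted p = 0.0635), WT 3 (0.106) or KrP 3 (0.125). The list's median was 0.03.

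Of 52 other ER folding, transport and ERAD genes, none passed the test, beside 2.18% of all genes. With the block 7 rose and none fell, beside 5.33% and 3.02% of all genes. At an unadjusted p under 0.05, 17 were higher and none was lower, beside 9.44% and 6.56% of all genes. In 21 of the 52, or 40.4%, all KrP values lay above all WT values, and in 1 they lay below, beside 11.4% and 8.93% of all genes. Their median log2 fold change was 0.14, with 46 above 0 and 6 below, and over the fits that left out 1 sample between 42 and 48 lay above 0. Members of this list include Pdia5, a disulfide isomerase, whose log2 fold change of 0.57 ± 0.12 SE missed the threshold (adjusted p = 0.0655) and passed with the block (0.0224). Creb3l1, a membrane-bound transcription factor that raises collagen secretion, had 0.57 (adjusted p = 0.159, or 0.0166 with the block), while its relative Creb3l2 had 0.13 (0.799). P4hb, the isomerase subunit of collagen prolyl hydroxylase, had 0.33 (0.182, or 0.0316), the collagen chaperone gene Serpinh1 had 0.24 (0.275), and Sec24d, a coat protein gene of ER export, had 0.13 (0.766). These 6 genes were chosen after their values were seen.

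Of 37 other genes of the integrated stress response, the response of ATF4 and its kinases, none passed, beside 2.18% of all genes. The list also holds the kinase genes Eif2ak1, Eif2ak2 and Eif2ak4 themselves. With the block none rose and 3 fell, beside 5.33% and 3.02% of all genes. At an unadjusted p under 0.05, 3 were higher and 2 lower, beside 9.44% and 6.56% of all genes. The median of the 37 genes was -0.14, with 11 above 0 and 26 below. That median was -0.02 without KrP 1, with 18 above 0 and 19 below, -0.03 without WT 2 and -0.02 with array weights. Among the 29 measured genes whose promoter window held the ER stress element, members included, 9 had all KrP values above all WT values and 2 had them below, beside 11.4% and 8.93% of all genes, and the median was 0.22. Of the 21 that were no members, 5 had them above and 2 below, and their median was 0.08. Of these 21, Spats2l alone passed the test (log2 fold change 1.06, limma adjusted p = 0.0274). Among the higher genes, Acnat2 and Xlr3c lay under the background guide of 6.28, with KrP means of 4.92 and 4.99, and Derl3 lay near it. Others of the 21, such as Esp16 and Olfr59, also lay under the guide. Derl3 and Ero1b are in the list of other ER genes as well.

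**Figure D5:**
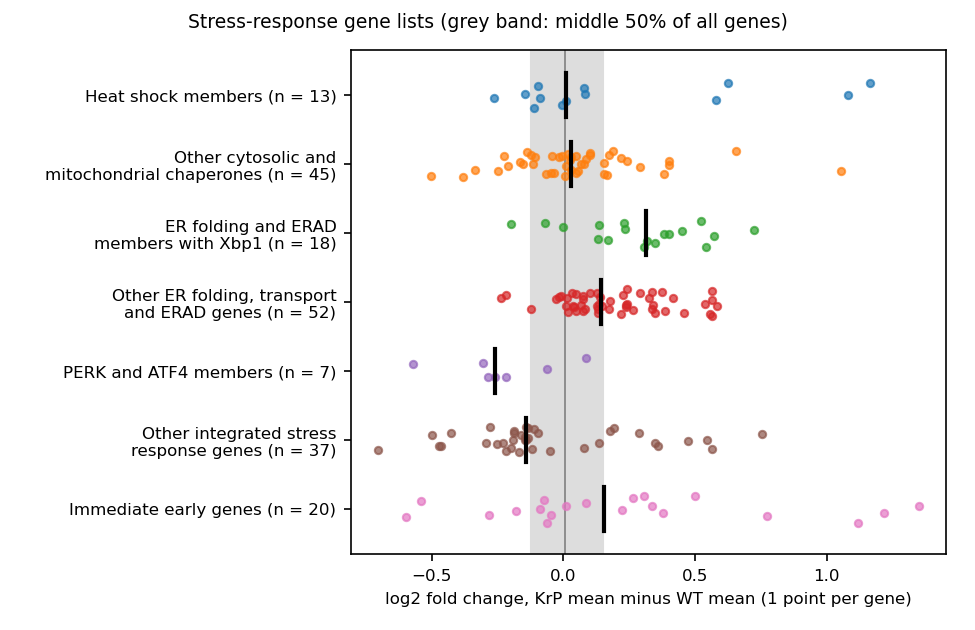
Log2 fold change (KrP mean minus WT mean, x axis) of each gene in 7 lists, with a black bar at each list's median and a grey band over the middle 50% of all 22180 genes. The medians are 0.31 for the ER folding and ERAD members, -0.26 for the PERK and ATF4 members, 0.01 for the heat shock members and 0.03 for other chaperones; the first 2 groups were formed after their values were known, and the band shows the spread of single genes, not of list medians.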

How the data were processed

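The deposited table holds log2 expression values that the authors made for 34390 probe sets on 6 arrays. The submitters' processing notes name RMA and Partek but give them no roles, and a genome build is not given in the sources used here. Of the probe sets, 23521 had 1 gene symbol in the platform annotation, 1814 had several and 9055 had none; 23328 of the first kind were renamed through gene IDs in a RefSeq table. The probe set with the highest mean stood for its gene. Members and lists were chosen with earlier results of these data known. Groups were compared with limma 3.58.1 in R 4.3.3 (lmFit, then eBayes with an intensity trend, without a block), adjusted over 22180 genes and tested on simulated data. Fold changes are KrP minus WT means on the log2 scale. Values are given in full for called members, the 6 largest differences in each arm, the sensors and factors, and called genes of the other stress-response lists. Called genes of the cell type marker lists are given by fold change.

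Deviations from group means correlated across genes between same-numbered samples (0.414, 0.350 and 0.120). The replicate number was therefore used as a block in an alternative fit, although no label says what it marks. The main fit left it out. The block rests on correlations in these same data, in which WT 2 had -0.385 with KrP 1 and 0.067 with KrP 3. Deviations sum to 0 within each group, so the correlations depend on each other. Blocked values stand beside results whose call they change. Alternatives varied the variance prior, array weights, the filter, normalisation, the choice of probe set and the samples. Motifs were searched on both strands of RefSeq promoter windows, which 37 of the 44 genes had.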

Additional observations from a re-analysis of the deposited data

How the results depend on the processing

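Of 640 values of the 40 members under 16 alternatives, 580 kept direction and side of the threshold, 6 lost a call, 35 gained one and 19 changed sign. Canx, at 0 in the main fit, had no direction to keep and was counted as kept wherever it was not called. It ran from -0.018 to 0.022 when samples were left out singly. The fit without both samples numbered 2 was added after the data were seen.

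With the replicate block, calls were 1851 over all genes, 2 among heat shock members, 3 among ER members, 3 among other chaperones, 7 among other ER genes, 3 among integrated stress response genes and 6 among immediate early genes. Array weights, which ran from 0.409 to 7.91 and leaned on 1 array per group, gave 6410, 5, 15, 16, 22, 11 and 12 in the same order. Without both samples numbered 2, these were 890 over all genes, 1 heat shock, 5 ER, 1 integrated stress response and 3 immediate early. Dropping the lower 50% of genes gave 2 ER members, 1 other ER gene and 1 immediate early gene, the fit without trend 1 other ER gene, and quantile normalisation 0 ER members. Leaving out 1 sample gave 85 to 1116 calls over all genes (most without KrP 2; 230, 256 and 101 when WT 1, 2 or 3 was omitted, 321 for KrP 1 and 85 for KrP 3), 0 to 1 heat shock members, 0 to 6 ER members (6 without KrP 2, namely Hsp90b1, Pdia6, Sdf2l1, Xbp1, Edem1 and Sel1l), 0 to 1 other chaperones, 0 to 1 other ER genes, 0 to 1 integrated stress response genes and 0 to 3 immediate early genes. The cause was not tested.

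Sign changes fell on members that were not called. Herpud1 had log2 fold changes of 0.15 with array weights and 0.29 without both samples numbered 2, and Trib3 had 0.049 and 0.06. Without both samples numbered 2, Dnajb1 had 0.025 and Chac1 0.055, and Hspe1 had -0.044 with quantile normalisation. When samples were left out singly, Hspa8 ran from -0.0067 to 0.0033, Hspb8 from -0.027 to 0.052, Hspd1 from -0.23 to 0.052, Bag3 from -0.025 to 0.20, Hspa4l from -0.065 to 1.495, Herpud1 from -0.26 to 0.14, Trib3 from -0.16 to 0.028 and Asns from -0.085 to 0.29. The median of the heat shock members was -0.04 with quantile normalisation. The replicate block changed the call of no member other than Hspa1b, Hspb1, Creld2 and Edem1. With 3 arrays per group, differences smaller than the intervals given were not resolved.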
